A study of Drosophila melanogaster with 12 samples.

Results

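The tip and the middle of chromosome arm 3L of Drosophila melanogaster were examined for peaks of 2 linker histones in S2 cells, an established embryonic Drosophila cell line. The members were all peaks on 3L whose midpoint lay below 2 Mb or from 7 Mb up to 19 Mb (build dm3), a total of 14 Mb. They numbered 1496 of the 19365 peaks in 8 lists from chromatin immunoprecipitation and sequencing (ChIP-seq). The groups were wild-type S2 cells (control) and S2 cells induced at 1 mM to express wild-type dBigH1 (induced), and chromatin of each was precipitated with polyclonal anti-dBigH1 or anti-H1 antibodies, giving 2 libraries per antibody and condition. The treatment protocol, 1 mM copper sulphate for 24 h, is worded alike for every sample, so the labels do not say whether control cells also received copper. The labels call the libraries replicates without naming separate cultures, so p-values measure only the spread between these libraries.

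Linker histones bind where DNA enters and leaves the nucleosome and help to fold chromatin. H1 is the linker histone of Drosophila somatic cells, whereas dBigH1 is found in early embryos and germ cells and gives way to H1 in somatic lineages. In interphase chromosomes H1 is widespread, and stretches of silent chromatin are known to carry more of it than active genes. A peak caller scores local enrichment, so a stretch without H1 peaks is one where no local enrichment was called, not one shown to lack H1. The lists hold no read counts and the depth behind each peak is unknown. A dBigH1 peak here is one called with the anti-dBigH1 antibodies. Whether such peaks of wild-type cells mark dBigH1 itself was not tested.

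H1 peaks gathered in few places on these 14 Mb. There were 287 and 386 H1 peaks in the control libraries and 254 and 408 in the induced ones. dBigH1 peaks numbered 63 and 67 in control and 16 and 15 in induced cells. Replicate 2 held the longer H1 list in each condition. The sequence was divided into 56 windows of 250 kb, and each peak was placed by its midpoint. A window was called H1-empty if every one of the 4 H1 lists had at most 1 peak in it, H1-dense if every list had at least 10, and intermediate otherwise. By this rule 31 windows (55.4%) were H1-empty, against 33.3% of all 475 windows of 2L, 2R, 3L, 3R and X. Dense windows numbered 11 (19.6%, against 21.7% of all windows), and 14 were intermediate. Of the other windows of the large autosome arms, 54 of 332 were H1-empty (16.3%). The H1 lists set these classes, so the H1 counts in them are a description. The dBigH1 lists played no part in setting them.

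**Figure D1:**
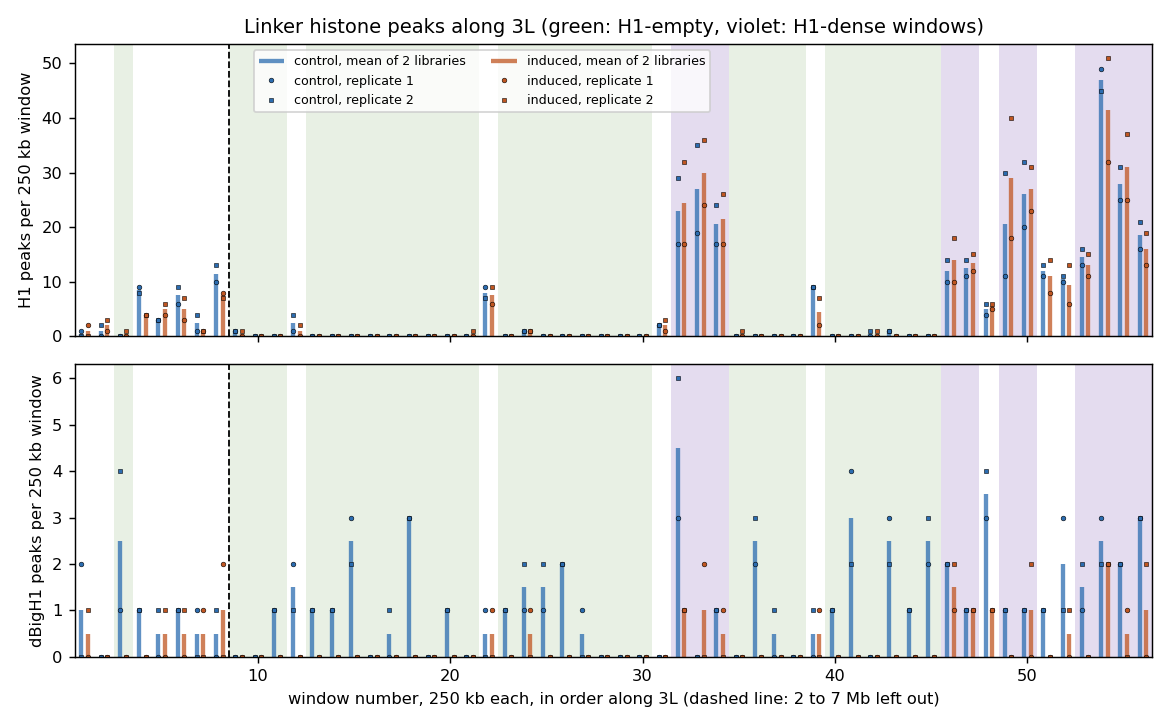
Peaks per 250 kb window in order along 3L for H1 (top) and dBigH1 (bottom); bars are means of 2 libraries and symbols single libraries, green marks H1-empty and violet H1-dense windows. The highest H1 window holds 32 to 51 peaks per list, while 24 windows hold 0 in all 4 lists, and control dBigH1 peaks lie in both kinds of window.

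H1-empty stretches of consecutive windows numbered 5 and made up 30 of the 31 empty windows and 7.5 Mb. They ran from 7 to 7.75 Mb, 8 to 10.25 Mb, 10.5 to 12.5 Mb, 13.5 to 14.5 Mb and 14.75 to 16.25 Mb, and the remaining empty window lay in the tip at 0.5 to 0.75 Mb. In 24 windows no list had an H1 peak. The second stretch, 2.25 Mb long, held 0 H1 peaks in 3 lists and 1 in the second induced list. The fourth, 1 Mb long, also held 0 in 3 lists and 1 in that same list. The longest interval between neighbouring H1 peaks measured 2.63 and 2.56 Mb in control and 3.87 and 2.13 Mb in induced libraries, so the conditions overlapped. The longest one, in the first induced list, began at 6.573 Mb, outside the sequence described here, and ended at 10.447 Mb.

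The borders of the empty stretches were placed separately in each H1 list. A border was the near edge of the first H1 peak, going outward from the middle of the stretch, that began a run of 3 H1 peaks within 50 kb. Of the 10 borders, 2 ranged over less than 6 kb across the 4 lists, and the other 8 ranged over 28.7 to 2573 kb. The upper border of the second stretch lay at 10441180 and 10442620 in control and at 10446757 and 10446729 in induced libraries, a range of 5.58 kb. The lower border of the third stretch lay at 10497916, 10497998, 10494364 and 10498010 (control 1 and 2, then induced 1 and 2), a range of 3.65 kb. These borders face each other across a compact island of H1 between 10.44 and 10.5 Mb. In control libraries it spanned 56.7 and 55.4 kb and held 9 and 7 peaks. In induced libraries it spanned 47.6 and 51.3 kb and held 6 and 9 peaks. Peaks covered 31.9% and 29.7% of that span in control and 26.5% and 40.9% in induced libraries. The span was shorter in both induced libraries than in either control one, while the peak numbers and covered shares of the conditions overlapped.

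A second island separated the fourth stretch from the fifth, at 14.67 to 14.74 Mb. Control lists had 9 and 9 H1 peaks in it and induced lists 2 and 7, over 66.5, 67.4, 44.99 and 61.4 kb in that order. With only 2 peaks, the first induced list did not meet the border rule there, and its border for both stretches fell at the next run, at 16267978 and 13367170. The other 3 lists placed the lower border of the fifth stretch between 14739146 and 14740341. A weaker island lay at 7.8 to 7.9 Mb between the first stretch and the second, where control lists had 1 and 4 peaks and induced lists 0 and 2. Only the second control list met the border rule at that island, with edges at 7874084 and 7884460. By this rule the first and second stretches formed 1 H1-poor domain in the other 3 lists, from between 6473407 and 6583797 to between 10441180 and 10446757.

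The remaining borders faced dense H1. The upper border of the fifth stretch ranged over 28.7 kb (16267978 to 16296723) and the lower border of the fourth over 50.3 kb (13367170 to 13417517). The upper border of the third stretch ranged over 271 kb, because 3 peaks of the second induced list formed a run at 12604696 while the other lists began theirs between 12857189 and 12875804. Over the 10 borders the median range across lists was 191 kb. Asking for 2 peaks within 50 kb gave a median of 39.5 kb, and asking for 5 peaks within 100 kb gave 80.6 kb.

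**Figure D2:**
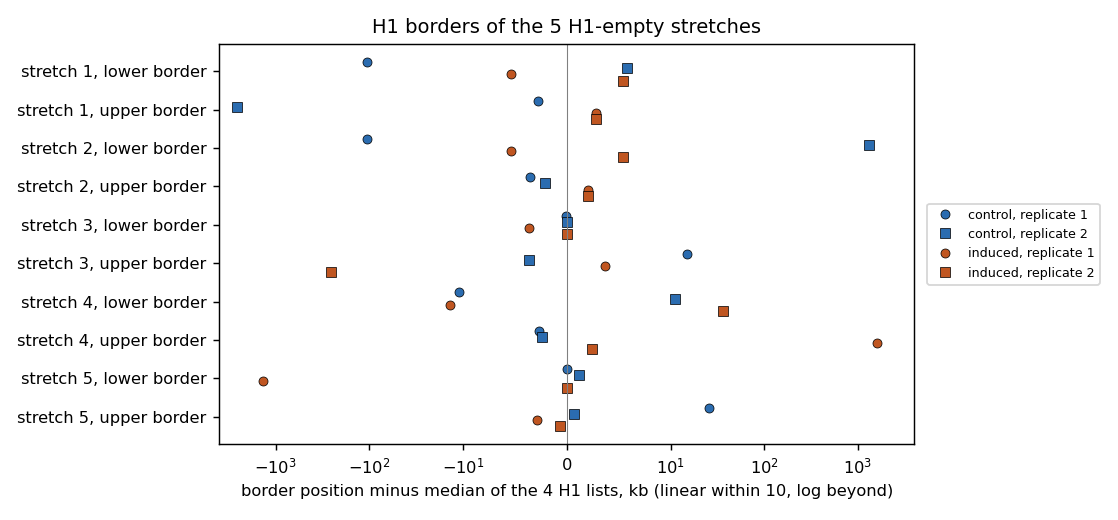
Position of each H1 border relative to the median of the 4 H1 lists, in kb on an axis linear within 10 and logarithmic beyond; circles are replicate 1, squares replicate 2. The borders on both sides of the island at 10.44 to 10.5 Mb coincide within 5.58 kb, while the points farthest from the median are those of the second control list at the island at 7.8 to 7.9 Mb and of the first induced list at the island at 14.67 to 14.74 Mb.

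A single strong H1 site stood inside the empty stretches. The 4 H1 lists together had 14 peaks in empty windows, of which 4 were this site, at 10918661 to 10924933 and 10918783 to 10924856 in control and 10918741 to 10924921 and 10918600 to 10924925 in induced libraries. It was 6074 to 6326 bp wide, and its scores (the authors' values) were 352.97 and 501.49 in control and 366.44 and 500.83 in induced libraries. It ranked 176 and 70 in the control lists and 89 and 125 in the induced lists. The other 10 peaks were 1170 to 3773 bp wide with scores of 51.19 to 102.38, and 2 of them overlapped a peak of another list. The nearest H1 peak below this site was 421, 421, 424 and 421 kb away (control 1 and 2, then induced 1 and 2), and the nearest above was 1.70, 1.69, 1.71 and 1.68 Mb away.

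Dense H1 lay in 4 stretches, at 12.75 to 13.5 Mb, 16.25 to 16.75 Mb, 17 to 17.5 Mb and 18 to 19 Mb. The first held 53 and 88 H1 peaks in the control lists and 58 and 94 in the induced ones, directly between empty stretches on either side apart from 1 intermediate window. The stretch at 18 to 19 Mb held 103 and 113 in control and 81 and 122 in induced libraries. Its window at 18.25 Mb was the highest of all, with 49, 45, 32 and 51 peaks. H1 peaks covered 16.5% and 25.3% of the dense windows in control and 16.9% and 28.5% in induced libraries. In the empty windows the covered share was 0.117% and 0.151% in control and 0.0798% and 0.198% in induced libraries.

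Control dBigH1 peaks were found in empty and dense H1 windows, whereas induced dBigH1 peaks were almost missing from the empty windows. The empty windows held 30 of 63 and 34 of 67 control dBigH1 peaks, and 1 of 16 and 0 of 15 induced ones. The shares were 47.6% and 50.7% in control and 6.25% and 0% in induced libraries, where H1-empty windows made up 55.4% of the windows. With 3 counts taken as the limit of a count of 0, 0 of 15 allows a share of up to 20%. Two-sided intervals for counting error alone (exact Clopper-Pearson, 95%) ran from 34.9 to 60.6% and 38.2 to 63.2% in control, and from 0.158 to 30.2% and 0 to 21.8% in induced libraries. The means were 49.2% ± 2.21 and 3.13% ± 4.42 (SD, n = 2). They differed by 46.1 percentage points, more than either spread, with every control library above every induced one. The exact two-sided permutation p was 0.333, the smallest that 2 against 2 libraries allow. It was the same wherever the libraries of the conditions did not overlap, with an adjusted p of 0.511 (Benjamini-Hochberg over 23 comparisons), so that no comparison here could pass 0.05.

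The dense windows held 18 and 21 control dBigH1 peaks and 9 and 10 induced ones. As a share of the members this was 28.6% and 31.3% in control and 56.3% and 66.7% in induced libraries (29.96% ± 1.96 and 61.5% ± 7.37, SD, n = 2), a difference of 31.5 percentage points. In numbers the induced lists had fewer dBigH1 peaks in every class. Dense windows carried 2.05-fold fewer in induced cells (log2 ratio -1.04) and intermediate windows 2.45-fold fewer (15 and 12 against 6 and 5). In empty windows the control lists had 64 peaks in all and the induced lists 1. The 64 include sites called in both control lists, so they are not independent counts. Per Mb, control dBigH1 peaks numbered 3.87 and 4.39 in empty, 4.29 and 3.43 in intermediate and 6.55 and 7.64 in dense windows. The induced values were 0.129 and 0, 1.71 and 1.43, and 3.27 and 3.64. The induced dBigH1 lists were shorter in the series as a whole (196 and 238 peaks against 599 and 719). Cutting all 4 dBigH1 lists to the 196 highest scores left 11 of 23 and 14 of 22 control members in empty windows, against 1 of 16 and 0 of 12 induced ones.

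**Figure D3:**
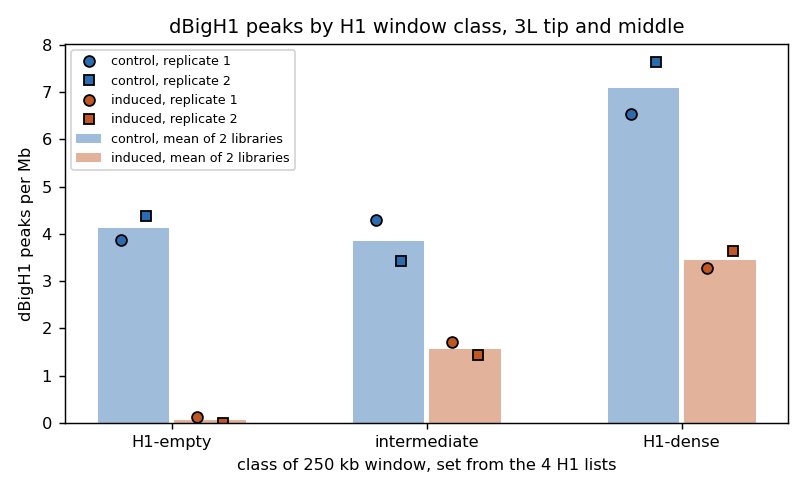
dBigH1 peaks per Mb in H1-empty, intermediate and H1-dense windows; bars are means of 2 libraries, symbols single libraries. Control libraries hold 3.87 and 4.39 peaks per Mb in H1-empty windows and induced libraries 0.129 and 0, while in dense windows the induced libraries reach 3.27 and 3.64.

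The single induced dBigH1 peak in an empty window lay on the strong H1 site. This peak of the first induced library, at 10918843 to 10924956, was 6114 bp wide and had the highest score (79.88) of the 16 members of its list. Its edges lay within 243 bp (start) and 100 bp (end) of those of the H1 peak in every list. The second induced library had no dBigH1 peak there, nor did either control library, whereas H1 was called in all 4 lists.

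Control dBigH1 peaks in empty windows recurred between replicates. Of those in empty windows, 24 of 30 (80%) and 24 of 34 (70.6%) overlapped a peak of the other control library by 1 bp or more, against 9 of 18 (50%) and 9 of 21 (42.9%) in dense windows. All 4 dBigH1 lists merged into 120 regions, and 38 of them (31.7%) were held by both control libraries and neither induced one, against 27.2% of all dBigH1 regions of the series. These 38 comprised 24 in empty, 6 in intermediate and 8 in dense windows. Peaks of both induced libraries, without a control one, made up 1 region (background 2.45%), and 0 were held by all 4 (background 0.317%). The 24 regions in empty windows were narrow, with a median width of 1331 bp, and 19 of them were under 2 kb.

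The 10 best-ranked regions of control cells alone were taken by mean rank of the score in both lists. Of these 6 lay in empty, 1 in intermediate and 3 in dense windows. First came 3L 12835768 to 12836963, a 1196 bp region near the edge of the first dense stretch, with scores of 460.67 and 565.31. Its midpoint lay 39.4 and 20.8 kb from the nearest H1 peak of the control lists. The second, 3L 16998962 to 17004646 (scores 349.72 and 252.03), sat at the start of the third dense stretch, yet its midpoint was 51.0 to 59.3 kb from H1 in the 4 lists. The third, 3L 7842964 to 7846392 (302.25 and 189.51), fell within the weak island at 7.8 to 7.9 Mb, 32.1 and 29.4 kb from control H1.

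The strongest region of an empty stretch was 3L 9412151 to 9416740, with scores of 345.31 and 145.68, and it was the widest of these 24 regions, at 4590 bp. Its midpoint lay 1027 and 1028 kb from control H1 peaks and 1032 and 590 kb from induced ones. The others were 3L 711640 to 713762 in the tip, 3L 15525374 to 15527728, 3L 8088740 to 8090035, 3L 10675214 to 10677679 and 3L 8684637 to 8686039. Their scores lay between 131.86 and 209.89 in the first and between 155.7 and 190.26 in the second control library. All but one were over 69 kb from H1 in every list. The exception was the region of the tip, whose midpoint lay inside an H1 peak of the second induced list and over 185 kb from the other 3 lists. The 29 and 30 control dBigH1 peaks of the 5 empty stretches lay at median distances of 739 and 588 kb from the nearer border. Each border was taken at its median over the 4 H1 lists, which passes over the island at 7.8 to 7.9 Mb, and no value for evenly spread peaks was computed.

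Scores of control dBigH1 peaks were no lower in empty windows than elsewhere. The median score in empty windows was 99.0 and 103, against 87.3 and 70.1 in dense and 71.0 and 73.95 in intermediate windows. Of the control members, 28 of 63 and 29 of 67 had a score of 100 or more, and 15 and 19 of these lay in empty windows. No induced member reached 100; their highest scores were 79.88 and 87.22. When only dBigH1 peaks with a score below 100 were kept, a choice made after seeing the data, empty windows still held 15 of 35 and 15 of 38 control peaks against 1 of 16 and 0 of 15 induced ones.

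**Figure D4:**
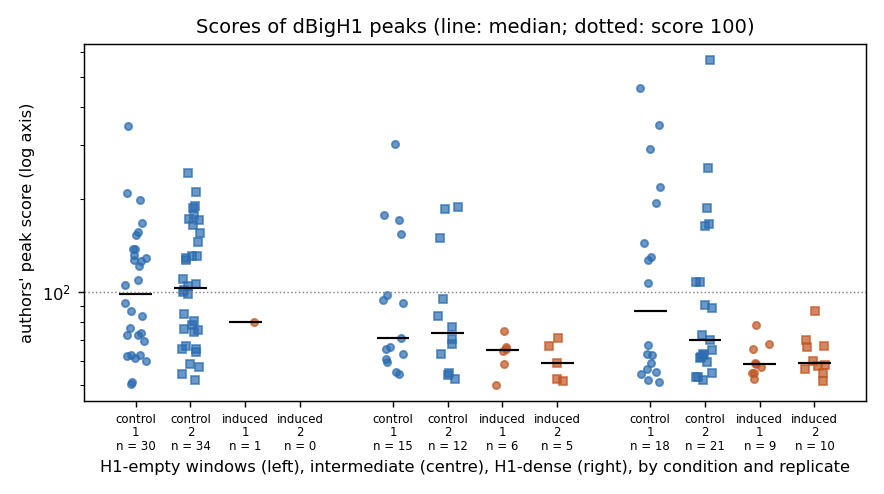
Score of every dBigH1 peak (authors' value, log axis) by H1 window class, condition and replicate; black lines are medians and the dotted line is a score of 100. Control peaks of H1-empty windows have medians of 99.0 and 103, and all 31 induced peaks lie below 100.

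Most induced dBigH1 peaks overlapped H1, whereas few control dBigH1 peaks did. In the H1 list of the same condition and replicate, 10 of 16 and 11 of 15 induced dBigH1 peaks overlapped an H1 peak, against 3 of 63 and 8 of 67 control ones. The shares were 62.5% and 73.3% in induced and 4.76% and 11.9% in control libraries (67.9% ± 7.66 and 8.35% ± 5.08, SD, n = 2). The difference of 59.6 percentage points exceeded either spread (exact two-sided permutation p = 0.333). Over the rest of 2L, 2R, 3L, 3R and X the shares were 12.2% and 20.8% in control and 55.4% and 57.0% in induced libraries, so the contrast had the same direction there, and its size was not compared by a test. The median distance from a dBigH1 midpoint to the nearest H1 peak was 87.0 and 73.8 kb in control and 0 kb in both induced libraries. More than 100 kb from any H1 peak lay 27 and 28 control peaks and 0 and 1 induced peaks. That 1 was at 50439 to 52378 in the tip, 331 kb from H1.

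The overlap with H1 differed between conditions within the dense windows too. There 6 of 9 (66.7%) and 8 of 10 (80%) induced dBigH1 peaks overlapped H1, against 3 of 18 (16.7%) and 5 of 21 (23.8%) control ones, a difference of 53.1 percentage points (exact two-sided permutation p = 0.333). Of the length of the dense windows, H1 peaks covered 16.5% and 25.3% in control and 16.9% and 28.5% in induced libraries. Median peak width in dense windows was 1413 and 1380 bp in control and 1542 and 1623 bp in induced libraries. The median distance to H1 there was 10.3 and 7.08 kb for control peaks and 0 kb for both induced libraries. In the empty windows 0 of 30 and 0 of 34 control dBigH1 peaks overlapped H1, a value that the choice of windows nearly fixes.

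**Figure D5:**
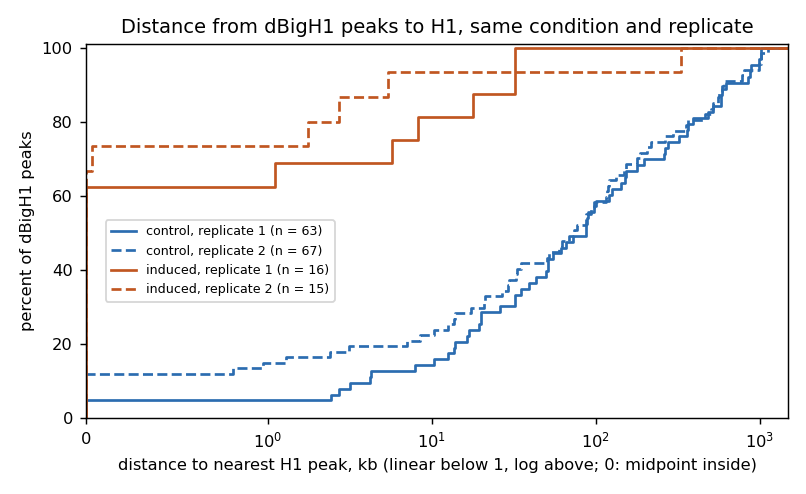
Cumulative percent of dBigH1 peaks by distance from their midpoint to the nearest H1 peak in the matching H1 list, in kb (linear below 1, log above). The induced lines start at 62.5% and 66.7% at 0 kb, while the control lines pass the middle of the axis at medians of 87.0 and 73.8 kb.

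The 1 dBigH1 region shared by both induced libraries was 3L 18475680 to 18478375, in the window with the most H1 peaks. Its scores were 78.59 and 66.72, and its midpoint lay inside an H1 peak of all 4 lists. That H1 region, 3L 18473531 to 18478414, was the best-ranked H1 region of the members held by all 4 H1 libraries, with scores of 492.43 and 409.77 in control and 320.14 and 592.25 in induced cells. Just above it, 3L 18479354 to 18482837 was held by both control dBigH1 libraries (54.44 and 70.07) and by the second induced one (87.22). The induced replicates otherwise shared no peak on these 14 Mb, with 1 of 16 and 1 of 15 recurring. Control replicates shared 39 of 63 and 39 of 67.

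H1 itself differed little in number between conditions. The log2 ratio of induced to control was -0.05 (336.5 ± 70.0 and 331 ± 109 peaks, SD, n = 2; exact two-sided permutation p = 1). Merging gave 510 H1 regions. All 4 libraries had a peak in 109 of them (21.4%), against 21.7% in the whole series. Another 19 had peaks of both control libraries alone (background 3.44%) and 14 of both induced libraries alone (background 3.07%). These shares lay near the background. The best-ranked H1 regions of all 4 libraries after the one at 18.47 Mb were the lone site at 10918600 to 10924933, then 3L 12978630 to 12986334, 3L 18312329 to 18318969 and 3L 13157667 to 13164869.

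Windows in which the conditions did not overlap were few. Both induced H1 lists were below both control lists in 4 of 56 windows (background 8.42%) and above them in 1 (background 3.16%). Of the 4 windows, 0.75 to 1 Mb had 9 and 8 peaks in the control lists against 4 and 4 in the induced ones, and 1.75 to 2 Mb had 10 and 13 against 8 and 7. The others were the island window at 14.5 Mb (9 and 9 against 2 and 7) and the empty window at 15.5 Mb (1 and 1 against 0 and 0). The window at 1 to 1.25 Mb had 3 and 3 in control and 4 and 6 in induced libraries. Control lists held 30 and 39 H1 peaks over the whole tip and induced lists 23 and 29 (log2 ratio -0.41; exact two-sided permutation p = 0.333), and the middle 257 and 347 against 231 and 379 (log2 ratio -0.01).

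Control-only H1 regions were led by sites of the tip. The first, 3L 1995543 to 2002132, had scores of 326.04 and 329.53. The nearest H1 peaks of the induced lists were 12.9 and 11.8 kb away, and a dBigH1 peak of the second induced library was 0.09 kb away. That dBigH1 peak lay beyond 2 Mb and was not a member. Then came 3L 973590 to 982519, 3L 920872 to 925300, 3L 14726915 to 14728938 of the island at 14.7 Mb, and 3L 1628829 to 1633512. The last of these lay 0.24 kb from an H1 peak and 0.048 kb from a dBigH1 peak of the first induced library. The region of the island overlapped a dBigH1 peak of the first induced library at 14727083 to 14728805 (score 58.62). It was the only one of the 19 control-only H1 regions to overlap an induced dBigH1 peak, and 1 of the 14 induced-only regions did so, against 12 of the 109 held by all libraries. In the whole series the shares were 4.80% of control-only, 1.96% of induced-only and 9.02% of all-library regions, and the first and second member shares rest on 1 region each. The 5 best-ranked induced-only H1 regions lay in dense windows, at 3L 16452332 to 16456219, 13071723 to 13074376, 13080450 to 13083930, 18441775 to 18443851 and 18574721 to 18576144. A control H1 peak came within 0.016 to 0.831 kb of each in at least 1 control list.

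The tip and middle of 3L were set against neighbouring sequence. For each dBigH1 peak at 2 to 7 Mb of 3L, the tip and middle held 3.15 and 1.60 in control and 0.327 and 0.273 in induced libraries, a 7.51-fold lower ratio in induced cells (exact two-sided permutation p = 0.333). Set against the rest of 2L, 2R, 3L, 3R and X the ratio was 0.129 and 0.111 in control and 0.0904 and 0.0679 in induced libraries, which is 1.53-fold lower (exact two-sided permutation p = 0.333). That rest includes 2 to 7 Mb of 3L, where the counts were 20 and 42 in control and 49 and 55 in induced libraries. A ratio to the rest without 2 to 7 Mb was not computed, so the 1.53-fold value is not separate from the 7.51-fold one. For H1 the ratio to 2 to 7 Mb was 1.00 and 1.54 in control and 1.09 and 1.75 in induced libraries, which overlapped. Members made up 10.5% and 9.32% of the control dBigH1 lists and 8.16% and 6.30% of the induced ones, a difference of -2.69 percentage points. It was -10.8 points at a score of 100 or more, where no induced member remained, and -4.34 with lists of equal length. With scores below 100 alone it was -1.12 points and the conditions overlapped. In the other windows of 2L, 2R, 3L, 3R and X, 28.4% and 23.6% of control dBigH1 peaks lay in H1-empty windows, against 0.565% and 0% of induced ones. The difference between conditions in this share was thus of the same direction there. It was larger on the tip and middle of 3L by 20.4 percentage points (exact two-sided permutation p = 0.333). H1-empty windows made up 55.4% of the windows here and 30.3% of the other windows, and the comparison was not adjusted for this. For dense windows the other windows held 24.1% and 32.9% of control and 62.1% and 58.4% of induced dBigH1 peaks. The difference between conditions in the members minus that in the other windows was -0.27 percentage points (exact two-sided permutation p = 1). Control dBigH1 peaks per Mb of empty window numbered 3.87 and 4.39 here and 4.38 and 4.47 in the other windows.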

How the data were processed

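Peak lists of 8 ChIP-seq libraries were used, and inputs were left out. MACS 1.4.2, Bowtie 0.12.5 and build dm3 are named, per the submitters' processing notes. Settings, and whether inputs served as control, are not given in the sources used here. The deposited lists give position, name and a score per peak, the authors' value, of at least 50. Scores served to rank and filter peaks of one list. Positions are 1-based.

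Windows, borders, overlaps (1 bp or more) and distances were computed with Python 3.11.15, NumPy 2.4.6 and pandas 2.3.3. Conditions were compared by exact permutation over libraries (6 arrangements). The code was tested on simulated lists (56 of 56 window classes and 100 of 100 borders recovered). The members, class limits and tests were chosen with earlier results of these data known. Named items were all stretches, the 10 best-ranked merged dBigH1 regions per class and 5 for H1. No genes or sequences are given, because the gene table used here is of another release. Alternatives were a score filter, joined peaks, equal list length, other windows, class limits and border rules, stricter overlap, each replicate left out and a replicate block.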

Additional observations from a re-analysis of the deposited data

How the results depend on the processing

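Of 100 alternative values for 17 results, 81 kept direction or size, 14 moved and 5 changed direction. The 81 include the replicate block, whose values equal the main ones by construction. No permutation test of 2 libraries against 2 could pass 0.05, so only direction and size are at stake. All 5 reversals were of H1 totals: lists of equal length gave a log2 ratio of peak number of 0.019 and a share difference of 0.099 percentage points. Leaving out each replicate gave -0.18 to 0.080 and -0.36 to 0.263, and without the tip (chosen after seeing the data) the share difference was 0.125. The dBigH1 log2 ratio lay between -2.22 and -0.70, and equal list length, which gave -0.70, shortens the control lists by construction. With each replicate left out it lay between -2.16 and -1.98. The share of dBigH1 in H1-empty windows stayed lower in induced cells by -54.6 to -35.4 percentage points, that in dense windows higher by 20.2 to 47.2, and the overlap with H1 higher by 53.1 to 68.8. Classes set from 1 condition's H1 lists gave -44.3 (control) and -43.7 (induced) for empty windows. At a score of 100 or more no induced dBigH1 member remained, so peak number, window shares and overlap gave no value.

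At that score, regions of both control dBigH1 libraries numbered 19 and of both induced 0, H1 regions of both induced libraries 9 and of all 4 libraries 28, and H1 windows with induced higher 0 and lower 2. Joining peaks gave 11 and 5 H1 regions for control and induced libraries alone and 7 windows with induced lower. Windows of 100 kb gave 3 higher and 7 lower. Covering 50% of a region left 63 H1 regions in all 4 libraries. The median border range was 39.5 kb with 2 peaks within 50 kb and 80.6 kb with 5 within 100 kb. The cause of these movements was not tested. A replicate block gave log2 ratios of -2.07 (dBigH1) and -0.05 (H1), equal to the main values by construction, with exact sign-flip p of 0.5 and 1. Replicate deviations over 475 windows correlated at 0.091 between conditions for dBigH1 and 0.407 for H1, and 2 numbers do not establish a pairing. Leaving out a replicate was not run for region, window and border counts, which need both lists of a condition.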
